A study of Xenopus laevis with 6 samples.

Results

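Apoptosis genes were examined in the maternal RNA of *Xenopus laevis* embryos at the 8-cell stage. They were chosen by annotated symbol: names starting with casp, bcl2 or birc (without birc5), and 22 listed symbols of the mitochondrial and death receptor routes and their relatives. On the array 32 genes carried such a name, out of 11303 named genes, with 39 probe sets between them. Of the 22 listed symbols 13 had a probe set of that name, and the other 9 were not analysed here. The brightest probe set stood for each gene, and 25 of the 32 genes passed an intensity filter that left out the dimmest 40% of probe sets. This frog is allotetraploid, and a symbol's ending, .L or .S, tells its homeologs (the copies from each parental genome) apart. Each copy counts as a gene.

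Apoptosis is a form of cell death carried out by caspases, proteases that are made as inactive precursors. In the mitochondrial route BAX and BAK open the outer membrane, cytochrome c escapes and assembles with APAF1, and initiator caspases then activate executioner caspases. BCL2-type proteins hold the pore formers back, and inhibitor of apoptosis proteins (IAPs) restrain caspases and other signalling proteins. In the death receptor route adaptors such as FADD and TRADD link surface receptors to caspases or to survival signals. *Xenopus* eggs hold much of this machinery as maternal stores, and damaged embryos are known to delay cell death until about the start of gastrulation.

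Animal blastomeres, from the upper cell tier, made up one group of 3 samples. The other group of 3 samples held the vegetal-most parts of vegetal blastomeres, without the equatorial regions, so that it does not stand for the whole vegetal cell. Both groups came from naturally mated adults, of which 2 pairs were used, and both were fixed in ethanol with acetic acid before dissection. No strain, genetic change or drug treatment is given in the labels, and the embryos are untreated as far as the labels say. Each sample was hybridized to a one-colour array, and the study asked which maternal RNAs are enriched in animal cells.

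Values are probe set intensities, as scaled by the authors, and means are given ± SD with n = 3. An intensity is relative to the RNA of its sample, so that a smaller amount in the cells and a smaller share of their RNA cannot be told apart. Nothing in the labels says that replicates are separate clutches, so the p-values cover only the spread among these arrays, which may be technical. Probe sets bind with different strength, and intensities of different probe sets are not set against each other. All 14 genes of the vegetal identity list (germ plasm and vegetal cortex) were higher in vegetal samples and all 5 of the animal list were higher in animal samples (limma, adjusted p under 0.05). These lists were chosen with earlier results of these data known. The vegetal gene *grip2.L*, at 4.57 ± 2.80 in animal samples, passed the intensity filter only through its vegetal arrays and is no support. Of 16 genes marking follicle or blood cells, 11 were not above the highest unspiked control (a control probe set other than the hybridization spikes and the controls for frog genes, taken as background) on any array. Their summed intensity was 97.8 to 125.3 in animal and 70.9 to 95.6 in vegetal samples. The largest part of that sum was *vim.L* (vimentin, an intermediate filament gene), at 60.3 to 75 in animal and 43.0 to 50.7 in vegetal samples and higher in animal samples by 1.47-fold (adjusted p = 0.014 by limma), whose part in the differences below was not tested. As a sign of RNA quality, the 3' control probe set of *gapdh* was divided by the 5' one, which gave 4.18 ± 0.19 in animal and 7.35 ± 0.41 in vegetal samples (exact permutation p = 0.1, the smallest that 3 arrays against 3 allow). The same ratio for actin was 182.6 ± 79 in animal and 323.8 ± 42.9 in vegetal samples (exact permutation p = 0.1). Neither ratio overlapped between the groups. The 3' to middle ratio of *gapdh* did overlap, at 2.16 ± 0.25 in animal and 2.74 ± 0.39 in vegetal samples (exact permutation p = 0.2). The part of RNA quality in the differences below was not tested.

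Most of the measured apoptosis genes differed between the poles as deposited, by modest amounts. Of 25 tested, 19 (76%) passed, 13 (52%) with higher values in animal samples and 6 (24%) with higher values in vegetal samples, and 6 did not pass (limma moderated test, adjusted p under 0.05 by Benjamini-Hochberg over all probe sets). Among all 8026 tested genes 50.9% passed, 27.1% with higher animal and 23.7% with higher vegetal values, so that the vegetal share is at the background as deposited. The 6 genes with higher vegetal values count *birc7.S* and *birc7-b* apart, although RefSeq lists *birc7-b* as a synonym of *birc7.S*. A gene of the 13, *bcl2l1.S*, passed the filter only through its animal arrays, which leaves 12 others, and the same held for 104 of the 2177 genes with higher animal values. The median difference was 0.31 on the log2 scale (animal minus vegetal) for the apoptosis genes and 0.03 for all genes. In 15 of the 19 genes that passed the difference was under 2-fold, and 4 of 25 (16%) passed with at least 2-fold, against 14.5% of all genes. Those 4 were 3 with higher animal values, *bcl2l1.S* among them (7.95% of all genes), and 1 with a higher vegetal value (6.57% of all genes). Animal and vegetal arrays were fully separated for 19 of 25 genes (76%), *bcl2l1.S* among them, and for 58.3% of all genes. The separation of *bcl2l1.S* is no support, since that gene passed the filter only through its animal arrays.

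**Figure D1:**
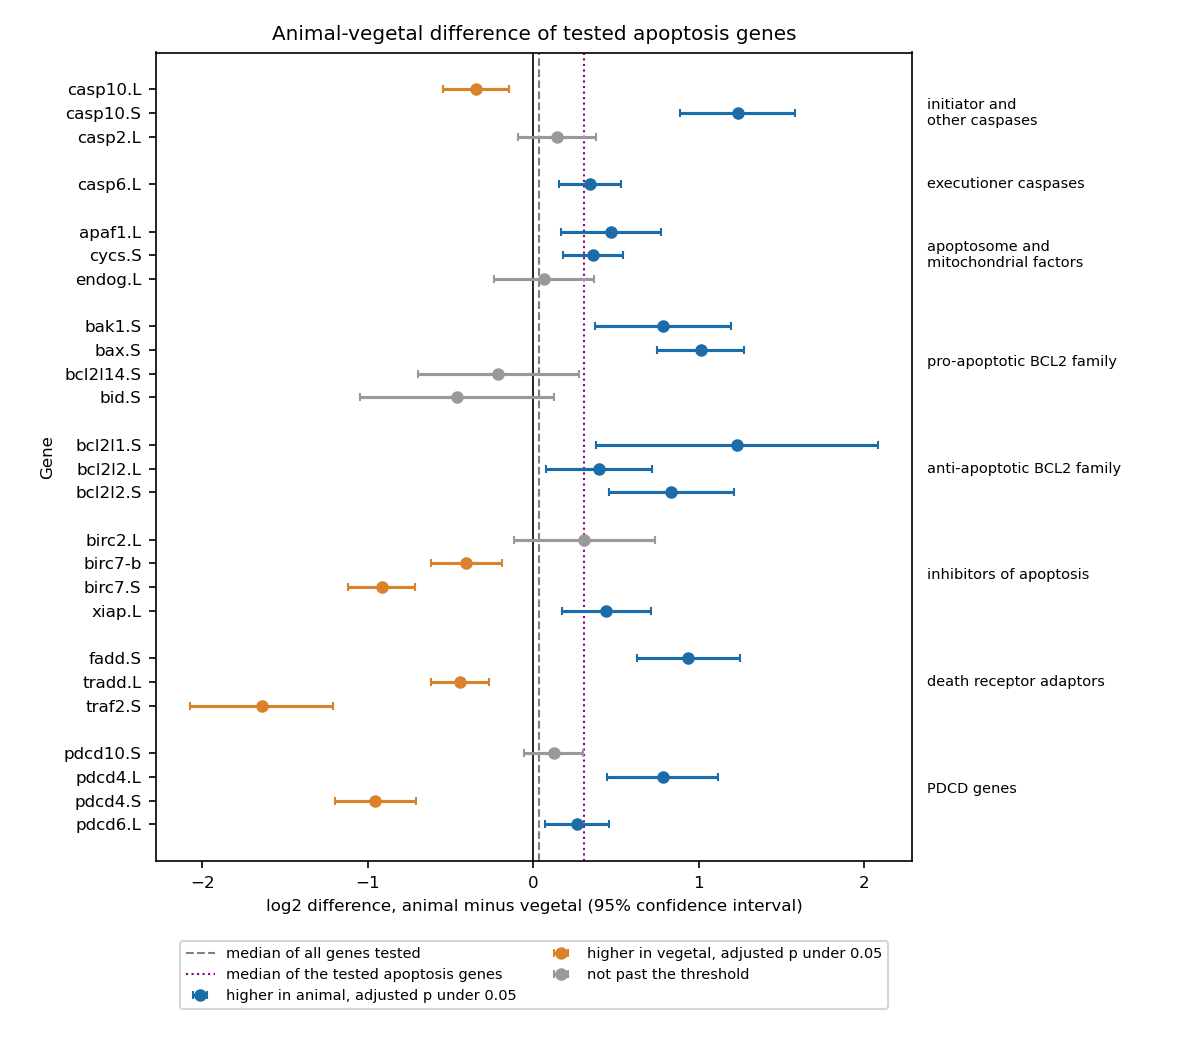
Difference in mean log2 intensity (animal minus vegetal) of the 25 tested apoptosis genes, grouped by role, with 95% confidence intervals from limma. Dashed and dotted lines mark the medians of all 8026 tested genes (0.03) and of the apoptosis genes (0.31). Both copies of *bcl2l2* and the tested pore formers, *bax.S* and *bak1.S*, lie to the right, and *traf2.S* lies farthest to the left, at -1.64.

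The split between the poles depended on the scaling of the arrays. It was 13 animal to 6 vegetal as deposited, 11 to 7 after quantile normalization, 6 to 7 after centring on array medians and 14 to 3 after scaling to spiked controls. The shares of all genes moved too. After quantile normalization 44% of the apoptosis genes passed with higher animal values and 28% with higher vegetal values, against 25.6% and 27.1% of all genes. After median centring these shares were 24% and 28%, against 14.9% and 40.9%. Under spiked-control scaling they were 56% and 12%, against 34.7% and 10.3%. The median of all genes moved as well, to -0.02, -0.24 and 0.27 (log2) in the same order. The median of the apoptosis genes lay 0.28 above that of all genes as deposited and 0.25 above it after quantile normalization. Median centring and spiked-control scaling shift all genes of an array alike, so that this gap is fixed under them. Calls for small differences are therefore relative to the scaling, and those of the apoptosis genes that ended are named beside each gene. Calls of the other pathway genes, given further below, were not followed under other scalings.

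**Figure D2:**
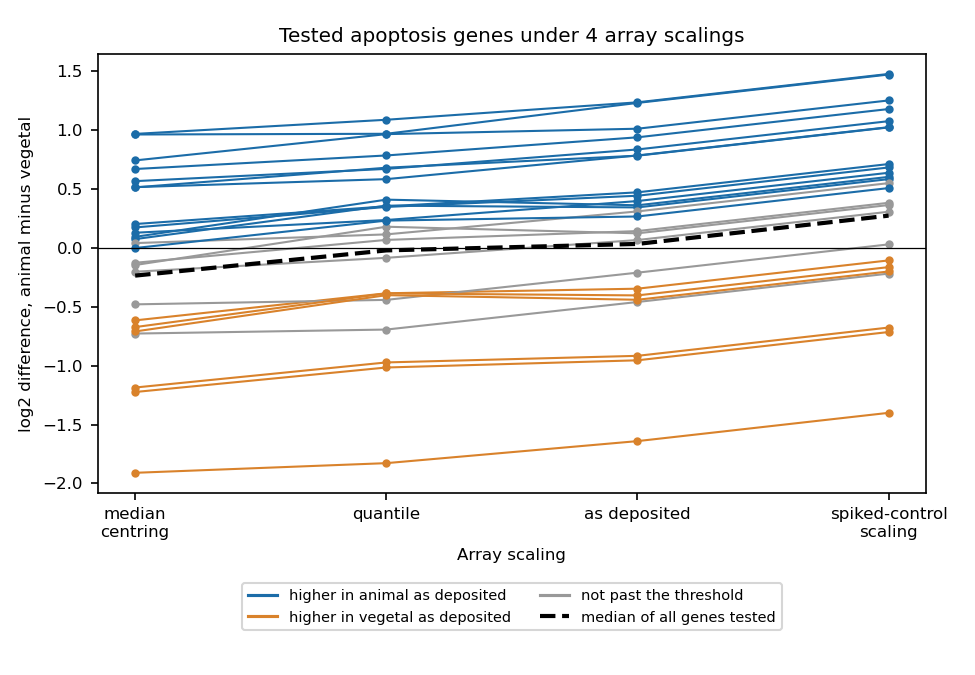
Log2 difference (animal minus vegetal) of each tested apoptosis gene under 4 array scalings, with 1 line per gene coloured by its call as deposited. The dashed line is the median of all tested genes, which runs from -0.24 after median centring to 0.27 after spiked-control scaling, and the gene lines move with it.

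The initiator caspases included a pair of gene copies that differed in opposite directions. *casp10.S*, a copy of caspase-10, an initiator of the death receptor route, read 145.1, 122.9 and 138.7 on the animal arrays and 56.8, 69.5 and 48.0 on the vegetal arrays (probe set Xl2.981.1.S1_at). Every animal array was above every vegetal array. The difference was 2.35-fold in favour of animal samples (95% confidence interval 1.85 to 2.99, adjusted p = 1.48e-05 by limma).

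The other copy, *casp10.L*, went the opposite way. Its intensities were 352.0, 370.4 and 358.0 in animal samples and 429.3, 509.3 and 439.4 in vegetal samples (Xl2.13924.1.S1_at). No array of one group lay within the range of the other, and the gene was higher in vegetal samples by 1.27-fold (1.11 to 1.46, adjusted p = 0.00581 by limma). That call ended under spiked-control scaling (-0.11 on the log2 scale, adjusted p = 0.662 by limma).

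*casp2.L*, an initiator caspase linked to DNA damage and stress signals, showed no such split. It read 270.6, 248.5 and 276.4 in animal and 256.9, 257.3 and 209.2 in vegetal samples, with overlapping groups. Its difference was 0.14 on the log2 scale (-0.09 to 0.38, adjusted p = 0.297 by limma). Its probe set name carries the suffix that the array maker gives to sets shared by several transcripts.

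The remaining initiator and inflammatory caspases gave little signal. *casp8.L*, the main initiator of the death receptor route, read 1.1 to 3.1 except for a vegetal value of 0.2. *casp1.L* and *casp1.S*, relatives of the inflammatory caspase-1, read 0.7 to 4.1 and 0.9 to 5.3. None of these 3 genes was above the highest unspiked control (4.1 to 6.7 per array) on any array, so that they have only an upper bound. *casp9.S*, the initiator that binds APAF1, was below the filter too, at 1.3, 4.6 and 2.9 in animal and 12.9, 8.9 and 7.3 in vegetal samples.

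The executioner caspase described here was *casp6.L*, a protease known for cleaving nuclear lamins. It read 742.0, 705.2 and 653.5 in animal and 561.5, 592.9 and 503.3 in vegetal samples, without overlap. The gene was higher in animal samples by 1.27-fold (1.11 to 1.45, adjusted p = 0.00468 by limma), and the call ended after median centring (0.07, adjusted p = 0.521 by limma). With the mean of both its probe sets it missed the threshold as well (0.33, adjusted p = 0.091 by limma).

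**Figure D3:**
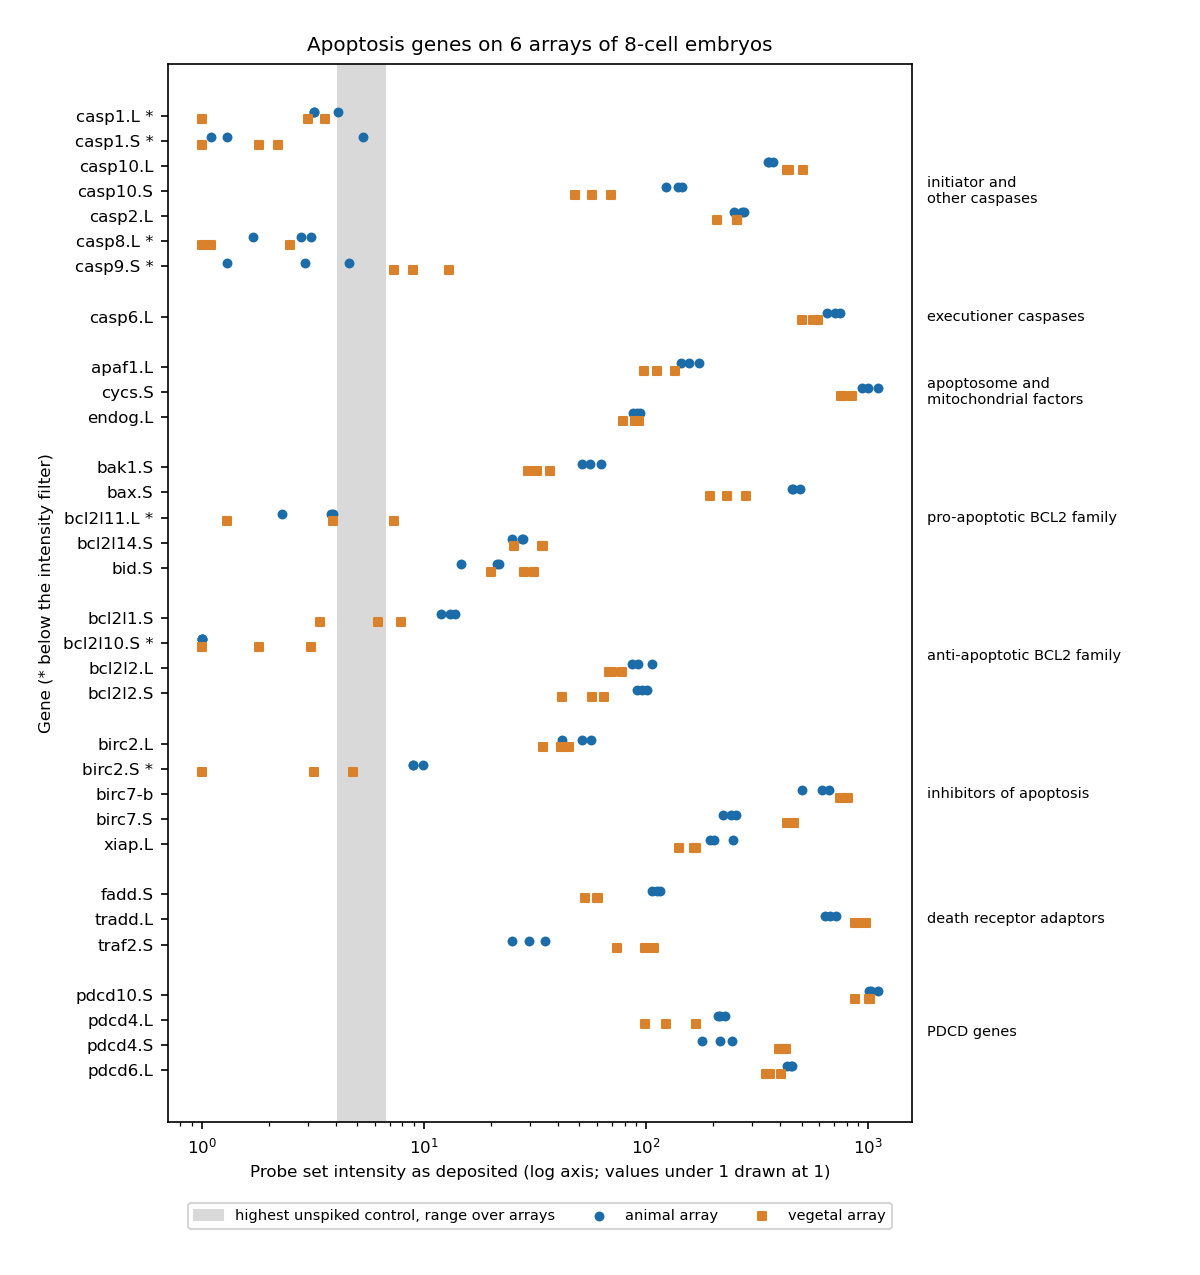
Intensity of all 32 apoptosis genes on each array (log axis, values under 1 drawn at 1), with circles for animal and squares for vegetal samples. The grey band is the range of the highest unspiked control over the arrays, 4.1 to 6.7, and asterisks mark the 7 genes below the intensity filter. Levels of different genes are not comparable, since each has its own probe set.

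Among the factors that act at and beyond the mitochondrion, 2 of 3 were higher in animal samples and 0 in vegetal samples. Of all genes 27.1% and 23.7% were, and with 3 genes this count is a description. *apaf1.L*, the scaffold of the caspase-activating complex, read 173.2, 156.4 and 143.5 in animal and 111.4, 97.8 and 134.1 in vegetal samples. All animal arrays were above all vegetal ones, with a 1.39-fold higher value in animal samples (1.13 to 1.71, adjusted p = 0.0113 by limma). This call ended after quantile normalization (adjusted p = 0.0536 by limma), after median centring (0.23), with no filter (0.0616) and without animal replicate 1 (0.0535) or vegetal replicate 2 (0.0551).

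*cycs.S*, cytochrome c, which carries electrons in respiration and activates APAF1 once released, was at 1015 ± 85 in animal and 789 ± 49 in vegetal samples. It was higher in animal samples by 1.28-fold (1.13 to 1.46, adjusted p = 0.00231 by limma), and the call was lost after median centring (0.09, adjusted p = 0.432 by limma). *endog.L*, a mitochondrial nuclease that can move to the nucleus in dying cells, read 93.7, 91.3 and 87.3 in animal and 78.6, 89.4 and 92.7 in vegetal samples. Its groups overlapped, and the difference was 0.07 on the log2 scale (-0.23 to 0.37, adjusted p = 0.72 by limma).

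Of the pore formers of the outer mitochondrial membrane, *bax.S* and *bak1.S* were tested, and both were higher in animal samples (27.1% of all genes were). Their other copies were not tested. *bax.S* read 494.4, 459.9 and 454.2 on the animal arrays and 282.5, 193.5 and 230.7 on the vegetal arrays (Xl2.743.1.S2_at). The difference was 2.02-fold (1.68 to 2.41, adjusted p = 6.45e-06 by limma). *bak1.S* was at 56.6 ± 5.4 in animal and 32.9 ± 3.7 in vegetal samples, higher in animal samples by 1.72-fold (1.30 to 2.29, adjusted p = 0.00314 by limma). Neither gene's groups overlapped (58.3% of all genes had no overlap). The call of *bax.S* held under every alternative that was run, and that of *bak1.S* under every one that tested it, since the filter on the lowest 60% left it out.

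The BH3-bearing genes of the same family did not follow the pore formers past the threshold. *bid.S*, which links death receptors to the mitochondrial route, was at 19.3 ± 4.0 in animal and 26.5 ± 5.8 in vegetal samples, with overlap (log2 -0.46, -1.05 to 0.13, adjusted p = 0.176 by limma). It passed as higher in vegetal samples after quantile normalization (-0.69, adjusted p = 0.046 by limma) and after median centring (-0.73, 0.0399). *bcl2l14.S*, a BCL2-like gene whose role in cell death is less clear, read 27.9, 27.5 and 24.9 in animal and 34.4, 25.4 and 33.9 in vegetal samples (adjusted p = 0.459 by limma). *bcl2l11.L*, the BH3-only activator BIM, was below the filter, and 1 of its 6 arrays was above the unspiked controls.

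Among the anti-apoptotic BCL2 genes both copies of *bcl2l2* were higher in animal samples (27.1% of all genes were), and the others of this role were dim. *bcl2l2.S*, a copy of the survival gene BCL-W, read 100.4, 91.2 and 95.8 in animal and 41.9, 57.2 and 64.5 in vegetal samples. It was higher in animal samples by 1.78-fold (1.37 to 2.32, adjusted p = 0.00111 by limma), without overlap. This call held under every alternative that was run.

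The other copy, *bcl2l2.L*, read 86.3, 106.6 and 91.7 in animal and 77.6, 70.3 and 67.8 in vegetal samples, without overlap. It was higher in animal samples by 1.32-fold (1.05 to 1.64, adjusted p = 0.0372 by limma). The call was fragile: it ended after quantile normalization (adjusted p = 0.206 by limma), after median centring (0.508), with the replicate block (0.0558), and without animal replicate 2 (0.167) or 3 (0.0674) or vegetal replicate 2 (0.0762) or 3 (0.0895).

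*bcl2l1.S*, the BCL-X gene, was dim, at 13.1, 13.8 and 11.9 in animal and 3.4, 6.2 and 7.9 in vegetal samples (Xl2.48468.1.S1_at). On the vegetal side 2 of the 3 arrays were above the unspiked controls. Its mean in vegetal samples is under the intensity filter, so that the gene was tested only because of its animal values. Its call (adjusted p = 0.0177 by limma) is therefore part of the count of 13 but is no support for it, and it ended with no filter (0.0699), after quantile normalization (0.0537), after median centring (0.0507), and without animal replicate 1 (0.0535), animal replicate 2 (0.0606) or vegetal replicate 1 (0.0614). *bcl2l10.S*, a further BCL2-like gene, was not above the unspiked controls on any array.

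Of 4 tested IAP genes, 1 passed with a higher animal value and 2 with higher vegetal values as deposited. Of all genes 27.1% and 23.7% did, and with 4 genes this count is a description. Among these IAP calls only that of *birc7.S* held under every alternative. *birc7.S*, a BIR-domain gene of the livin group, read 254.7, 240.1 and 221.8 in animal and 463.7, 457.1 and 430.8 in vegetal samples (Xl2.6954.1.S1_at). Every vegetal array was above every animal array, at 1.89-fold (1.64 to 2.17, adjusted p = 1.17e-06 by limma), and the call held under every alternative that was run. Going the other way, *xiap.L*, which blocks caspases directly, was at 214 ± 28 in animal and 157 ± 14 in vegetal samples. That was higher in animal samples by 1.36-fold (1.13 to 1.63, adjusted p = 0.00807 by limma), a call lost after median centring (adjusted p = 0.22 by limma) and without animal replicate 1 (0.0501).

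*birc7-b*, annotated apart from *birc7.S*, gave a divided picture. Its brightest probe set read 615.9, 667.9 and 502.3 in animal and 809.1, 743.6 and 795.1 in vegetal samples, higher in vegetal samples by 1.32-fold (1.14 to 1.54, adjusted p = 0.0036 by limma). Its dimmer probe set was at 31.8 ± 3.1 in animal and 21.8 ± 0.8 in vegetal samples, 0.54 on the log2 scale in the opposite direction (adjusted p = 0.0551 by limma). Averaged over both, the difference was 0.07 (adjusted p = 0.651 by limma), and the call of the brightest set also ended under spiked-control scaling (adjusted p = 0.414 by limma) and with no filter (0.0556). The platform annotation gives *birc7-b* a gene identifier of its own, whereas the RefSeq gene table lists the name as a synonym of *birc7.S*, and how far its probes also bind *birc7.S* was not tested.

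*birc2.L*, a ubiquitin ligase that works with TRAF proteins at receptors, read 51.2, 56.5 and 41.7 in animal and 34.3, 41.2 and 44.9 in vegetal samples. The groups overlapped, and the difference was 0.31 on the log2 scale (-0.12 to 0.74, adjusted p = 0.211 by limma). Its copy *birc2.S* was below the filter, at 8.9, 8.9 and 9.9 in animal and 3.2, 0.6 and 4.8 in vegetal samples, without overlap.

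The 3 adaptors of the death receptor route all passed, in different directions (50.9% of all genes passed in either direction). With 3 genes this count is a description. *traf2.S*, an adaptor that carries TNF receptor signals towards survival pathways, read 29.6, 35.1 and 25 on the animal arrays and 98.7, 108.2 and 73.8 on the vegetal arrays (Xl2.10433.1.S1_at). Every vegetal array was above every animal array. At 3.12-fold (2.31 to 4.21, adjusted p = 8.03e-06 by limma) it was the largest fitted difference among the 25 tested genes and the only one higher in vegetal samples by at least 2-fold.

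*tradd.L*, the adaptor that brings TRAF2 to the TNF receptor, was also higher in vegetal samples. It read 671.3, 714.8 and 637.3 in animal and 977.8, 899.1 and 869.7 in vegetal samples, 1.36-fold (1.20 to 1.53, adjusted p = 0.000372 by limma). This call ended under spiked-control scaling (adjusted p = 0.282 by limma). *fadd.S*, the adaptor that recruits initiator caspases to death receptors, went the other way, at 106.7, 111.6 and 114.8 in animal and 60.8, 60.3 and 53 in vegetal samples. It was higher in animal samples by 1.92-fold (1.55 to 2.37, adjusted p = 7.26e-05 by limma). None of the 3 adaptors had overlapping groups (58.3% of all genes had no overlap). The calls of *traf2.S* and *fadd.S* held under every alternative that was run.

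The programmed cell death genes, named for early screens rather than for a shared function, held the second divided pair. *pdcd4.S*, an inhibitor of the translation initiation helicase eIF4A, read 214.8, 244.5 and 178.6 in animal and 426.7, 394.1 and 406.7 in vegetal samples (Xl2.19975.1.S1_at). It was higher in vegetal samples by 1.94-fold (1.64 to 2.30, adjusted p = 6.16e-06 by limma). Its copy *pdcd4.L* read 215.6, 226.4 and 210.7 in animal and 122.3, 167.2 and 99.0 in vegetal samples (Xl2.14956.1.S1_at), higher in animal samples by 1.72-fold (1.36 to 2.17, adjusted p = 0.000764 by limma). The groups did not overlap for either copy, and both calls held under every alternative that was run.

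*pdcd6.L*, a calcium-binding protein also called ALG-2, was 1.20-fold higher in animal samples by its brightest probe set (1.05 to 1.38, adjusted p = 0.0231 by limma), at 445 ± 12 against 371 ± 30. Its other probe set read 178.9, 193.9 and 216.2 in animal and 73.3, 77.0 and 53.1 in vegetal samples, higher in animal samples by 2.92-fold (2.32 to 3.69, adjusted p = 9.94e-07 by limma). The sets agree in direction and their confidence intervals do not overlap. The call of the brightest set ended after median centring (0.00 on the log2 scale, adjusted p = 0.987 by limma), without the mean-variance trend (0.067) and without animal replicate 1 (0.0622), animal replicate 2 (0.0732), vegetal replicate 2 (0.067) or vegetal replicate 3 (0.0767). *pdcd10.S*, a scaffold for kinases of the STRIPAK complex, read 1026.9, 1005.6 and 1104.5 in animal and 1004.3, 1012.6 and 868.9 in vegetal samples, with overlap (adjusted p = 0.231 by limma). It passed as higher in animal samples after quantile normalization (0.18 on the log2 scale, adjusted p = 0.0487 by limma) and under spiked-control scaling (0.36, 0.024).

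Several probe sets of one gene mostly pointed the same way. Among the 5 genes with several tested probe sets, those of *bcl2l2.S*, *casp6.L* and *pdcd6.L* all had the sign of the brightest set, and those of *birc7-b* did not. The other sets of *bcl2l2.S* were 1.56-fold (adjusted p = 0.041 by limma) and 1.41-fold (adjusted p = 0.0399 by limma) higher in animal samples. The dim second set of *bax.S* stayed under the unspiked controls throughout the vegetal arrays. It passed the filter only through its animal arrays and says nothing on whether the sets point the same way. The second set of *casp6.L* did not pass (0.32 on the log2 scale, adjusted p = 0.474 by limma).

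**Figure D4:**
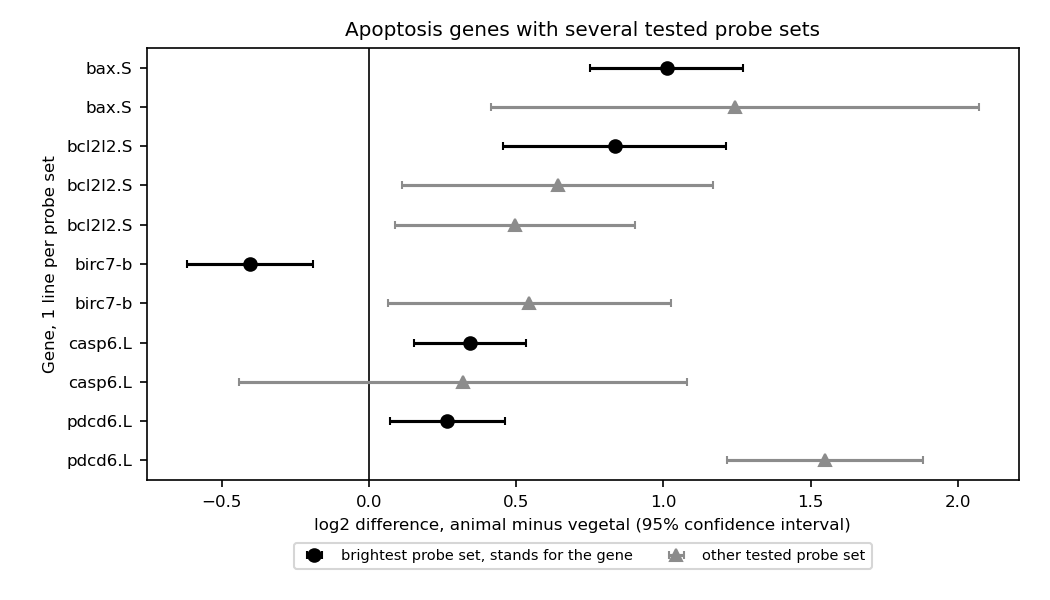
Log2 difference (animal minus vegetal) with its 95% confidence interval for every tested probe set of the 5 apoptosis genes that have several, with black circles for the brightest set and grey triangles for the others. The sets of *birc7-b* lie on opposite sides of 0, at -0.40 and 0.54, and those of *pdcd6.L* are at 0.27 and 1.55. The second set of *bax.S* passed the intensity filter only through its animal arrays.

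Whether the copies of a gene differed in their animal-vegetal difference was tested on the per-array difference of log2 intensities, L minus S, over 1357 pairs with both copies tested. In such a difference a shift of a whole array cancels. An effect that differs between probe sets does not cancel, and the part of RNA quality was not tested. Of all pairs, 43.4% were unequal (limma, adjusted p under 0.05 over the pairs), and 8.92% had copies that passed in opposite directions. Of the 3 pairs among the apoptosis genes, 2 were unequal, *casp10* and *pdcd4*, and the same 2 had copies that passed in opposite directions. With 3 pairs this count is a description.

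For *casp10* the log2 difference between the copies was 1.28, 1.59 and 1.37 on the animal arrays and 2.92, 2.87 and 3.19 on the vegetal arrays, without overlap. The animal-vegetal differences of the copies were 2.995-fold apart (2.35 to 3.81, adjusted p = 0.000331 by limma). For *pdcd4* the values were 0.01, -0.11 and 0.24 on the animal arrays and -1.80, -1.24 and -2.04 on the vegetal arrays, again without overlap and 3.33-fold apart (2.30 to 4.84, adjusted p = 0.00138 by limma). For *bcl2l2* the copies were not shown to be unequal, at -0.44 on the log2 scale with an interval of -1.005 to 0.13 (adjusted p = 0.181 by limma). How far a probe set of one copy also binds the other was not tested.

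**Figure D5:**
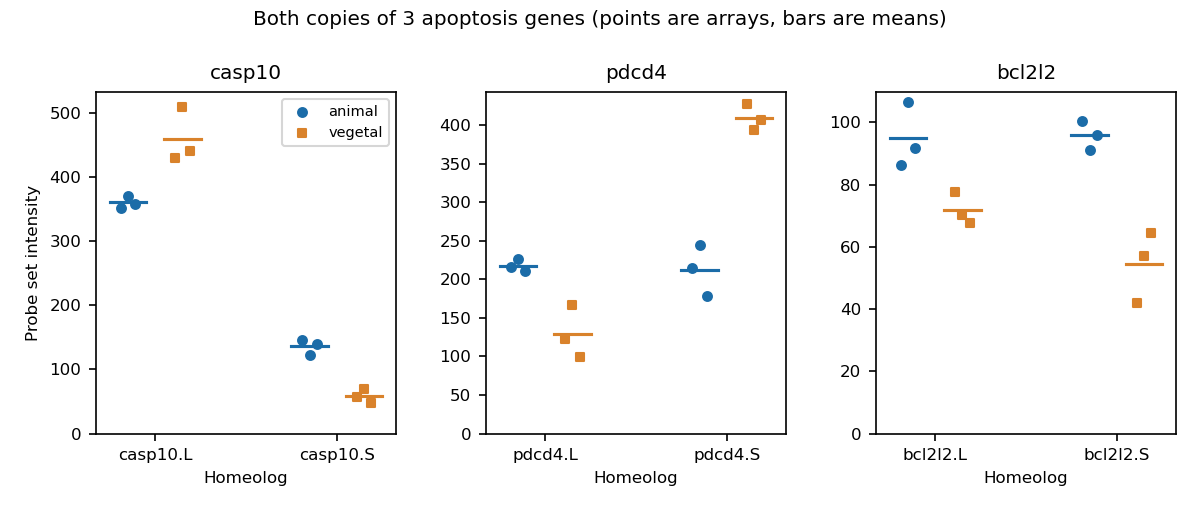
Intensity of the probe sets of both copies of *casp10*, *pdcd4* and *bcl2l2* on each array, with horizontal bars for the mean of 3 arrays. For *casp10* and *pdcd4* the order of animal and vegetal samples turns between the copies, whereas both copies of *bcl2l2* are higher in animal samples. Heights of different probe sets are not comparable.

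Other genes of the pathway were taken from 4 lists, which named 107 symbols and matched 104 genes on the array. Of 90 tested genes, 22 passed with higher animal values, 24 passed with higher vegetal values and 44 did not pass, with a median of -0.06 (log2) against 0.03 for all genes. These shares lie near the background of 27.1% and 23.7%. All calls in these lists are as deposited, and whether they hold under other scalings was not tested. Among receptors, ligands and their partners, 2 of 5 tested passed with higher animal values and 1 with a higher vegetal value. *tnfrsf10b.L*, a death receptor of the TRAIL type, was at 150 ± 6.8 in animal and 255 ± 18 in vegetal samples, higher in vegetal samples by 1.70-fold (adjusted p = 2.96e-05 by limma). *cflar.S*, a caspase-like inhibitor of death receptor signals, was higher in animal samples by 1.68-fold (adjusted p = 0.0131 by limma).

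Of 14 tested genes of the p53 and DNA damage checkpoint list, 5 passed with higher animal and 4 with higher vegetal values. The shares of all genes were 27.1% and 23.7%. *chek1.S*, a checkpoint kinase that slows the cell cycle after DNA damage, was at 485 ± 57 in animal and 1640 ± 126 in vegetal samples, higher in vegetal samples by 3.39-fold (2.95 to 3.91, adjusted p = 9.03e-10 by limma). *chek2.L*, another checkpoint kinase on the list, was higher in animal samples by 1.81-fold (adjusted p = 0.000567 by limma). *ei24.S*, a p53-induced membrane protein of the endoplasmic reticulum, was higher in animal samples by 3.13-fold (2.63 to 3.74, adjusted p = 2.58e-08 by limma).

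Among other regulators of the mitochondrial step, 7 of 30 tested passed with higher animal and 6 with higher vegetal values. For all genes these shares were 27.1% and 23.7%. The tested copies of the outer membrane porins were higher in animal samples, and their other copies were not tested. The differences were 1.53-fold for *vdac1.S*, 1.96-fold for *vdac2.S* and 2.14-fold for *vdac3.L* (adjusted p = 0.000753, 2.32e-05 and 2.1e-07 by limma). *tmbim6.S*, a copy of the BAX inhibitor of the endoplasmic reticulum, was higher in vegetal samples by 1.93-fold (adjusted p = 2.32e-06 by limma). The other copy, *tmbim6.L*, did not pass, at 508 ± 5.0 in animal and 466 ± 36 in vegetal samples (adjusted p = 0.24 by limma). The animal-vegetal differences of these copies were 2.10-fold apart (adjusted p = 0.00116 by limma). *bmf.S*, a BH3-only gene, was dim, at 5.07 ± 4.25 in animal and 13.6 ± 2.4 in vegetal samples. It is among the 6 but passed the filter only through its vegetal arrays, which fixes the direction of its difference, so that it is no support.

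Of 41 tested downstream and other regulators, 8 passed with higher animal and 13 with higher vegetal values. The background was 27.1% and 23.7% of all genes. *akt2.L*, a survival kinase, was at 989 ± 65 in animal and 319 ± 13 in vegetal samples, higher in animal samples by 3.10-fold (2.73 to 3.51, adjusted p = 5.9e-10 by limma). *dapk3.L*, a death-associated kinase, was higher in animal samples by 3.03-fold (adjusted p = 0.000132 by limma). *siva1.L*, a gene of death receptor signalling, was higher in vegetal samples by 2.39-fold (adjusted p = 2.35e-06 by limma). *lmnb1.S* and *lmnb1.L*, lamins that executioner caspases cleave, were higher in vegetal samples by 1.78-fold and 1.52-fold (adjusted p = 1.01e-05 and 3.11e-05 by limma).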

How the data were processed

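Each array is 1 column of linear intensities in the deposited table, which the authors made with GCOS, per the submitters' processing notes. The software's version and settings are not stated there. A 2% trimmed mean of 150 on every array shows a common scaling, and the intensities were used as they stand. Of 32635 probe sets, 96 were controls, and the highest of 59 unspiked controls on an array served as its background. Names came from the platform annotation, with symbols updated by gene identifier (15384 matched, 2 changed). The sources name no genome build, and no coordinates or sequences are given.

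Values under 1 were set to 1 before log2. Leaving out the lowest 40% of probe sets by mean log2 (under 6.94 in mean intensity) left 19523. The 3 animal and 3 vegetal arrays were compared with limma 3.58.1 in R 4.3.3 (lmFit, then eBayes with a trend, no block, two-sided, Benjamini-Hochberg). Homeolog pairs were fitted alike, without trend, on L minus S. Both fits were tested on simulated data with independent noise. Those data hold no array-wide shift or RNA quality effect, so that they do not bear on these. The number of arrays limits the precision. Correlations of same-numbered replicates' deviations were -0.023, 0.0063 and -0.014, so no pairing by number was seen. Such values cannot exclude a pairing, since the spread among arrays may be technical.

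The genes, roles and lists were chosen with earlier results of these data known. Values on every array are given for genes that passed with at least 2-fold and no overlap, and for the largest and smallest difference per role. Further genes were added after their values were seen. Alternatives were 3 other scalings, no filter or a filter on the lowest 60%, an offset of 16, no trend, the replicate block, the mean of all probe sets, and leaving out each array.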

Additional observations from a re-analysis of the deposited data

Results flagged for a closer look

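Both genes here lay below the intensity filter and so outside the comparison, but were above the highest unspiked control on all 3 arrays of one group and on none of the other. They were picked by this pattern, so that its direction is no support for a difference. The vegetal mean of *casp9.S* was 9.70 ± 2.88 (SD, n = 3) and its animal mean 2.93 ± 1.65. With the animal arrays set to their highest unspiked control, vegetal values were 1.93-fold higher, a lower bound on the measured difference, without an interval. Fitted without the filter *casp9.S* did not pass (adjusted p = 0.0622 by limma). The animal mean of *birc2.S* was 9.23 ± 0.58 (SD, n = 3) and its vegetal mean 2.87 ± 2.12. With the vegetal arrays set to their highest unspiked control, animal values were 1.64-fold higher, again a lower bound without an interval. *birc2.S* did not pass either (adjusted p = 0.0864 by limma).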

How the results depend on the processing

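Of the 19 genes that passed, 8 kept their direction and their side of the threshold under every alternative run: *casp10.S*, *bax.S*, *bcl2l2.S*, *birc7.S*, *fadd.S*, *traf2.S*, *pdcd4.L* and *pdcd4.S*. So did *bak1.S* where it was tested, the filter on the lowest 60% having left it out. The count of genes higher in animal samples was 13, and fell to 6 after median centring. The count higher in vegetal samples was 6, and fell to 3 under spiked-control scaling. The other alternatives gave 11 to 13 and 5 to 7, and leaving out single arrays gave 9 to 12 and 6. The replicate block gave 12 and 6, ended the call of *bcl2l2.L* and changed no other. Among the genes that passed, the signs turned for *pdcd6.L* after median centring (-0.002, log2) and for *birc7-b* with the mean of all probe sets (0.07), and the cause was not tested. They also turned for 4 genes that did not pass, *endog.L*, *pdcd10.S*, *casp2.L* and *bcl2l14.S*. *casp10* and *pdcd4* stayed unequal between copies under all alternatives run for pairs, and *bcl2l2* never passed. Not run for pairs were median centring and spiked-control scaling, which cancel in L minus S, and the mean of all probe sets. The trend alternative was not run for pairs either, whose fit has none. Genes near the unspiked controls are limited by signal over background.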

Other observations

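Copies of a gene were also compared among the other pathway genes, where the share of pairs in opposite directions was near that of all pairs. Of 23 pairs with both copies tested, 13 (limma, adjusted p under 0.05 over 1357 pairs) were unequal in their animal-vegetal difference, and 2 had copies that passed in opposite directions, against 43.4% and 8.92% of all pairs. The widest was *fis1*, an outer membrane protein of mitochondrial fission. The animal and vegetal means were 112.6 ± 2.6 and 62.5 ± 9.9 for *fis1.L*, and 34.3 ± 8.5 and 214 ± 27 for *fis1.S* (SD, n = 3 each). Their differences were 11.5-fold apart (adjusted p = 0.000137 by limma). The copies of *api5*, an apoptosis inhibitor, were 1.67-fold apart (adjusted p = 0.0033 by limma), with *api5.S* higher in animal and *api5.L* higher in vegetal samples. The difference of *api5.L* was 1.18-fold and was not followed under other scalings. Its probe set carries the same suffix as that of *casp2.L*, for sets shared by several transcripts. These pairs were chosen after their values were seen.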
